A study of Solanum lycopersicum with 8 samples.

Results

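FALSIFLORA (FA, Solyc03g118160), ANANTHA (AN, Solyc02g081670) and COMPOUND INFLORESCENCE (S, Solyc02g077390) are genes of tomato inflorescence development, and they were taken by their identifiers from a table of 34722 genes. All 3 were listed in the table, and 2 of them, FA and S, reached a value of 10 or more in 2 or more libraries and so entered the fit across 19186 genes. AN was below that filter and is described from its reads. The table came from RNA sequencing of dissected shoot apical meristems, the dividing dome of the shoot tip, of tomato (Solanum lycopersicum). Wild-type plants (WT) and the ltm mutant (late termination) were compared with 4 leaves and with 6 leaves, with 2 libraries per group, called A and B. According to the series' design text, meristems of the mutant were set against vegetative wild-type meristems of the same stage, and wild-type meristems at the floral transition against vegetative ones. The seedlings of all groups were raised in a greenhouse for 2 to 12 days and fixed in acetone before dissection. Neither a cultivar nor the mutated locus or allele is named in the labels, and the mutated gene itself could therefore not be examined.

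A tomato shoot meristem stops making leaves and ends in a flower, and growth goes on from the meristem beside it. FA encodes the tomato LEAFY protein, a transcription factor that gives a meristem floral identity, and plants without it form leafy shoots in place of flowers. AN encodes the tomato counterpart of UNUSUAL FLORAL ORGANS, an F-box protein that in Arabidopsis works with LEAFY to switch on floral organ genes, and plants without AN keep making meristems in place of flowers. S encodes a homeobox protein of the WUSCHEL family, and its loss delays the passage of inflorescence meristems to flower formation, so that the inflorescence becomes highly branched. In wild-type tomato the activity of S comes before that of AN as a meristem matures.

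Between 17895357 and 21987881 reads per library were assigned to genes. The values below are normalized read counts, which are read counts divided by a size factor per library. They are read within a gene and not between genes, since no transcript lengths were used. The labels call A and B repeats without saying that they came from different plants. The p-values therefore reflect only how far these libraries differed, which may be technical. The meristem markers TKN2, TKN1, WUS and CLV3 were present in all libraries, with summed values of 5975 to 10148. The flower markers TM5, TAG1, TAP3, TPI and GLO1 summed to at most 11.1. Green-tissue genes, a list of 12 chlorophyll-binding and Rubisco genes, summed to 15249 to 22214 in 7 libraries and to 28494 in ltm 4 leaves B. In such whole-meristem RNA, fewer cells of a type and less RNA per cell cannot be told apart.

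FA, the floral identity factor, had its lower values in the mutant. In WT its value was 4874 and 4887 in the A and B libraries at 4 leaves, and 5091 and 5407 at 6 leaves. In ltm it was 4645 and 3229 at 4 leaves, and 3568 and 4186 at 6 leaves. All 4 ltm libraries thus lay below all 4 WT libraries, where the WT libraries lay close together (5065 ± 249, SD, n = 4) and the ltm libraries were spread more widely (3907 ± 632, SD, n = 4). Among the 19186 tested genes, 2.41% had their 4 ltm libraries all below the 4 WT libraries.

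Over both leaf numbers the mean of FA was 22.9% lower in ltm. The log2 difference was -0.39 ± 0.12 (SE; 95% interval -0.67 to -0.11), and it did not pass the adjustment over all genes (limma unadjusted p = 0.0127, adjusted p = 0.453). In this comparison 8 genes passed, which is 0.0417% of those tested, and 8.58% had an unadjusted p under 0.05. An exact permutation test over the 8 libraries, two-sided, gave p = 0.0286 for FA, which is the smallest value that 4 against 4 libraries allow, and 0.0857 after adjustment over the 6 tests made on the 3 genes. Of the nearest libraries of the genotypes, ltm 4 leaves A was at 0.953 of WT 4 leaves A (95% interval from counting error 0.916 to 0.992), so the gap between the genotypes was small beside the spread within ltm.

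FA was lower in ltm at each leaf number by its means, 26.1% at 6 leaves and 19.3% at 4 leaves. At 6 leaves ltm stood at 3877 ± 437 and WT at 5249 ± 223 (SD, n = 2 each), a log2 difference of -0.44 ± 0.17 (limma adjusted p = 0.755, unadjusted p = 0.0331). At that leaf number 1 gene passed, 0.00521% of those tested. At 4 leaves ltm stood at 3937 ± 1001 and WT at 4880 ± 9.58, a log2 difference of -0.33 ± 0.17 (limma adjusted p = 1.0, unadjusted p = 0.0878), and again 1 gene, 0.00521%, passed. Having both ltm libraries below both WT libraries was common at each leaf number, at 21.9% of tested genes with 6 leaves and 11.7% with 4. The differences at the 2 leaf numbers differed from each other by -0.11 ± 0.24 (95% interval -0.67 to 0.45; limma adjusted p = 1.0 for the interaction). The ltm 4 leaves libraries disagreed with each other: B was at 0.695 of A (0.664 to 0.727 from counting error). Library ltm 4 leaves B was also the one with the highest green-tissue sum, and the part of that in its FA value was not tested. Without that library the difference at 4 leaves was -0.071, and over both leaf numbers it was -0.26, still with every ltm library below every WT library.

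Between the leaf numbers the FA values were close. The mean at 6 leaves was 1.08 times that at 4 leaves in WT, with both 6 leaves libraries above both 4 leaves libraries, an order that 20.9% of the tested genes shared. In ltm it was 0.985 times, and the 6 leaves libraries lay between the 4 leaves libraries. The log2 differences were 0.10 ± 0.17 in WT (95% interval -0.29 to 0.50) and -0.0031 ± 0.17 in ltm (-0.40 to 0.39). Neither passed in limma (adjusted p = 0.882 and 1.0), where 0 genes passed in each, 0% of those tested.

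AN, the F-box partner of LEAFY in flower formation, was near the limit of detection, and nearly all of its reads were in the mutant. In WT it had 0 reads in both 4 leaves libraries, 1 read in 6 leaves A and 0 in 6 leaves B. In ltm it had 4 and 11 reads at 4 leaves, and 5 and 4 reads at 6 leaves. The ltm libraries all lay above the WT libraries, as normalized values of 4.0 to 11.1 against 0 to 0.996. Of the 2446 genes that missed the filter and had at least 10 reads in all, 1.27% had all ltm libraries above all WT libraries. AN reached those 10 reads only through ltm, where it was high, so this share does not measure how unusual its order is. The same holds for the shares of low genes given below for each leaf number.

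In total AN had 24 reads in ltm and 1 in WT, which at equal depth is 23.4-fold (95% interval from counting error 3.82 to 964, exact binomial, Clopper-Pearson). Such intervals cover counting error only. The exact permutation test, two-sided over 8 libraries, gave p = 0.0286, again the smallest possible, and 0.0857 adjusted over the 6 tests. When limma was run with no filter, the log2 difference of AN was 2.44 ± 0.40 with an unadjusted p of 0.000324 and an adjusted p of 0.186.

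The AN reads were not confined to a single ltm library, although B at 4 leaves held 11 of the 24. Without ltm 4 leaves B, 13 reads remained in ltm against 1 in WT. That library also had the highest sums of the flower markers (11.1, against 0 to 7.93 elsewhere) and of the green-tissue genes, and the part of these in its AN value was not tested. The flower markers summed to 4.98 and 7.93 in the WT 6 leaves libraries and to 0.946 and 2.0 in the ltm 6 leaves libraries. At 6 leaves AN and this sum thus had opposite orders, on few reads. Of the single markers, GLO1 and TPI were lower there in both ltm libraries than in both WT libraries. TAP3 was higher in both, as AN was, and TM5 and TAG1 did not separate the genotypes. At 4 leaves AN came out 5.19-fold higher in ltm when WT is set to the floor of 3 reads over the group. That figure leaves out the counting error of the 15 ltm reads. Of the low genes, 11.9% also had both ltm libraries above both WT libraries. At 6 leaves it was 8.26-fold higher (1.14 to 362), and 13.0% of the low genes shared that order. The figure from the floor at 4 leaves (15 reads against 0) and the ratio at 6 leaves (9 against 1) were formed differently. Their sizes therefore give no order of the leaf numbers. Between the leaf numbers the ltm reads were 9 at 6 leaves and 15 at 4 leaves, or 0.577-fold (0.223 to 1.41), so no stage difference was detectable at this depth.

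**Figure D1:**
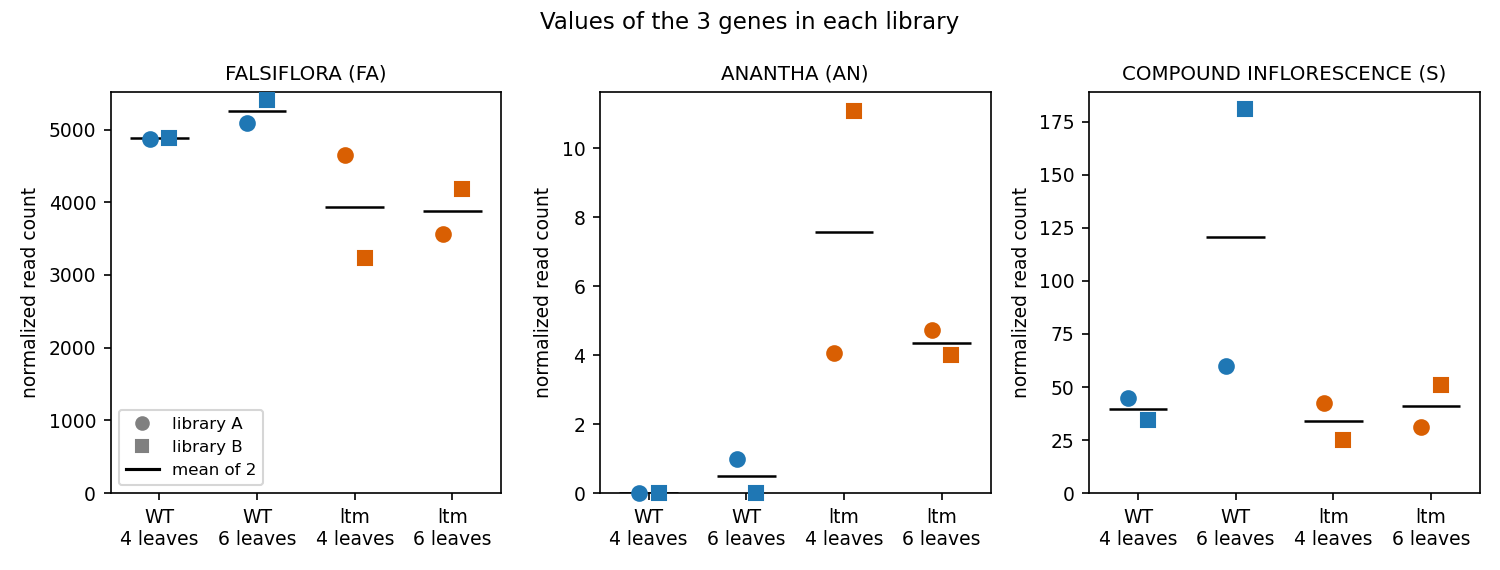
Normalized read count of FA, AN and S (vertical axes, each from 0) in the 4 groups of genotype and leaf number; circles are A libraries, squares B libraries, blue is WT, orange is ltm, and the bars are means of 2 libraries. FA lies lower in the 4 ltm libraries (3229 to 4645) than in the 4 WT libraries (4874 to 5407), AN lies higher in ltm (4.0 to 11.1 against 0 to 0.996), and S stands out in WT 6 leaves B at 181.

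S, the homeobox gene that acts before AN, had its highest values in WT at 6 leaves. There it was at 59.7 in A and 181 in B. In WT at 4 leaves it was at 44.8 and 34.5, in ltm at 4 leaves at 42.6 and 25.2, and in ltm at 6 leaves at 31.2 and 51.0. Both WT 6 leaves libraries lay above the other 6, while those 6 overlapped across genotype and leaf number. The margin was narrow, with 60 reads in WT 6 leaves A against 51 in ltm 6 leaves B. How many of all tested genes share that order was not counted, so it is not read as particular to S. Of the genes listed further on, FUL1, FUL2, MBP20, STM3 and TM6 were among those with the same order, while JOINTLESS and BLIND were without it.

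From 4 to 6 leaves the mean of S in WT went from 39.6 ± 7.30 to 120.5 ± 85.9 (SD, n = 2), a ratio of 3.04. The log2 difference was 1.38 ± 0.53 (95% interval 0.16 to 2.61) and did not pass over all genes (limma unadjusted p = 0.0316, adjusted p = 0.727). In WT 3.12% of tested genes were higher at 6 leaves with an unadjusted p under 0.05. In ltm the means were 33.9 ± 12.3 and 41.1 ± 14.0, with a log2 difference of 0.28 ± 0.53 (limma adjusted p = 1.0) and overlapping libraries. The stage changes differed by -1.11 ± 0.75 between ltm and WT, an interaction with a 95% interval of -2.85 to 0.63 that did not pass in limma (adjusted p = 1.0, unadjusted p = 0.18), and 0.719% of the tested genes had an unadjusted p under 0.05 for it.

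At 6 leaves S was 65.9% lower in ltm than in WT, and all ltm libraries lay below all WT libraries, as they did for 21.9% of tested genes. The log2 difference was -1.36 ± 0.53 (limma unadjusted p = 0.0338, adjusted p = 0.755). At 4 leaves the difference was -0.25 ± 0.53 (95% interval -1.48 to 0.98; limma adjusted p = 1.0) and the libraries overlapped. Over both leaf numbers it was -0.81 ± 0.38 (limma adjusted p = 0.602), and the exact permutation test gave p = 0.2 for genotype and 0.171 for leaf number over both genotypes.

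The height of S at 6 leaves rested largely on a single library. WT 6 leaves B held 3.03 times the S of WT 6 leaves A (2.24 to 4.15 from counting error), so the libraries differed beyond counting error. Of the tested genes, 1.75% differed at least as much between those libraries, and 2.10% were at least 1 log2 unit higher in B. Of the inflorescence genes listed further on, 12 of 13 tested members were higher in B than in A, as were 6 of 7 meristem genes, against 49.2% of all tested genes. Most of these differences were smaller than that of S: the median was 0.23 log2 units in the inflorescence list and 0.25 in the meristem list, and in all 1 of the 20 was at least 1 unit higher. Of the green-tissue genes 8 of 11 tested were higher in B as well, with a median of 0.28, and of the floral organ genes 1 of 2. A majority higher in B was thus not limited to the inflorescence and meristem lists. The green-tissue list was compiled after the table was seen and includes clusters of related genes. Named after their values were seen, FUL2, a FRUITFULL-like gene, was at 387.3 in B and 198.2 in A, and the stem cell peptide gene CLV3 at 330.7 and 143.4. The florigen relative SP went the other way, at 0 and 7.97, and so did the KNOX gene TKN1, at 1532 and 1580. Of genes below the filter, the florigen gene SFT was at 10.2 and 0, while the SEPALLATA-like gene J2 was at 7.93 and 19.9. The meristem marker sum was 8891 in WT 6 leaves B and 5975 to 6964 in the other WT libraries. In the ltm libraries it was 7263 to 10148, where S was at 25.2 to 51.0. The sum includes TKN1, which was at 2424 to 3320 in ltm and 1299 to 1583 in WT, so it is not a like measure between the genotypes. The part of this sum in the S value was not tested. Without WT 6 leaves B the WT stage difference of S was 0.59 and the genotype difference at 6 leaves -0.57.

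**Figure D2:**
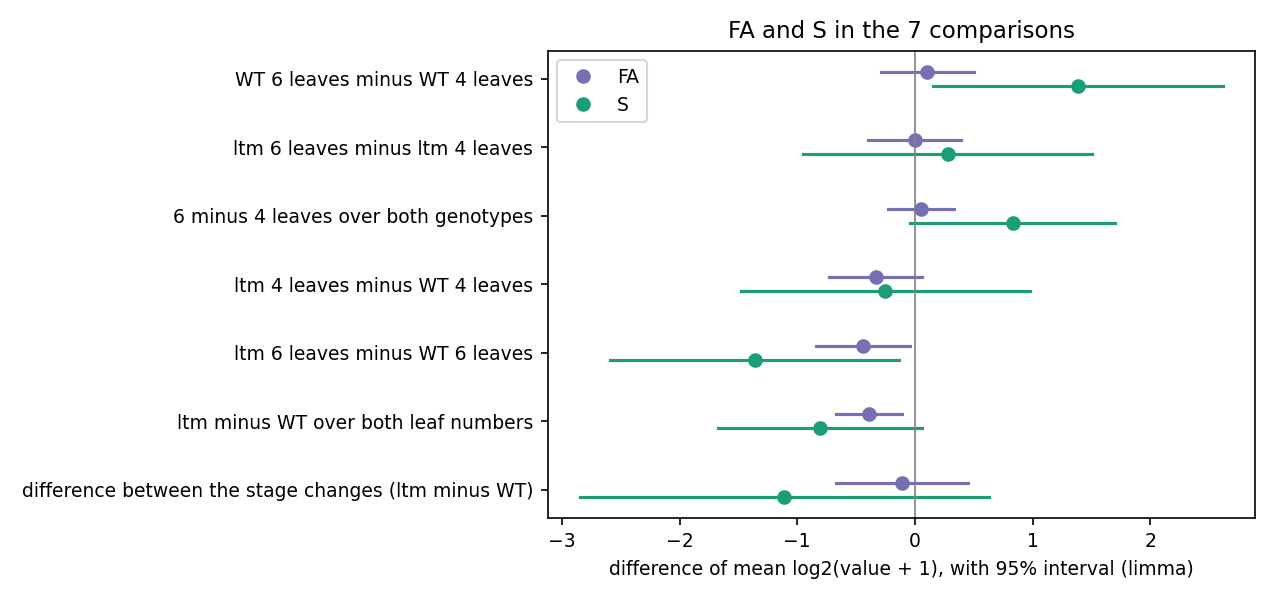
Differences of mean log2(value + 1) from limma (horizontal axis) with their 95% intervals for FA and S in the 7 comparisons; the vertical line marks 0. The intervals of FA lie below 0 for ltm against WT at 6 leaves and over both leaf numbers, those of S leave 0 out in WT 6 against 4 leaves and in ltm against WT at 6 leaves, and no comparison passed the adjustment over all genes.

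The order of the 4 groups differed between the genes. By their means FA ran from WT 6 leaves (5249) through WT 4 leaves (4880) and ltm 4 leaves (3937) to ltm 6 leaves (3877), and the ltm groups did not differ beyond their spread. AN ran from ltm 4 leaves (7.57) through ltm 6 leaves (4.37) to WT 6 leaves (0.498) and WT 4 leaves (0), where neither the ltm pair nor the WT pair could be told apart. S ran from WT 6 leaves (120.5) through ltm 6 leaves (41.1) and WT 4 leaves (39.6) to ltm 4 leaves (33.9), and the last 3 groups overlapped. FA and AN thus split the libraries by genotype in opposite directions, while S was highest in WT at 6 leaves, largely through library B.

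The 3 genes were read beside a list of 19 other genes of inflorescence identity. It held florigen family members, SSP, JOINTLESS, MADS-box genes, TMF with its BLADE-ON-PETIOLE partners, and BLIND. Of these 13 passed the filter, and 0 passed over all genes in limma in any of the 7 comparisons. Over both leaf numbers 0 of the 13 had the ltm and WT libraries fully apart in either direction, where 3.55% of tested genes did so upward and 2.41% downward. Their median log2 difference there was -0.26, against -0.0047 over all tested genes, with 7 lower and 3 higher at an unadjusted p under 0.05. These shares over all genes were 3.68% and 4.90%. Solyc05g056620 passed the filter only through WT 6 leaves, where it was high, and is among the 7 lower. SP passed it only through ltm and is among the 3 higher. The list was also chosen with earlier results of these data known, so the counts are a description.

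In WT at 6 against 4 leaves, 7 of the 13 were higher and 0 lower at an unadjusted p under 0.05, where 3.12% of all tested genes were higher. Their median was 0.68 against -0.0029 over all tested genes. Both 6 leaves libraries lay above both 4 leaves libraries in 8 of the 13, and in 20.9% of all tested genes. At 6 leaves 6 were lower in ltm and 1 higher, against 2.88% and 3.57% of all tested genes, with a median of -0.34 against -0.0054. There 8 had both ltm libraries below both WT libraries and 2 had them above, an order found in 21.9% and 22.5% of all genes. Solyc05g056620, which passed the filter only through WT 6 leaves, is among the 7 and the 8 of the WT stage. It is also among the 6 and the 8 lower in ltm.

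The genes of this list with the smallest unadjusted p are given by their values. MBP20, a FRUITFULL-like MADS-box gene, was at 6.40 and 11.5 in WT 4 leaves, at 71.7 and 108.7 in WT 6 leaves, and at most 19.9 in the ltm libraries. FUL1, a related gene, was at 134.4 and 141.6 in WT 6 leaves and at most 68.1 in the other 6 libraries. STM3, a MADS-box gene related to the flowering integrator SOC1, was at 2839 and 3775 in WT 6 leaves and at 1247 to 2064 elsewhere. Solyc05g056620, listed as a MADS-box gene of uncertain name, was at 124.5 and 146.1 in WT 6 leaves and at most 1.04 elsewhere. They were named for their differences in comparisons that include WT 6 leaves, so their high values there follow in part from that choice and are a description. TMF, an ALOG family gene whose product holds back the early activation of AN in tomato, is named here after its values were seen. It was at 3074 to 3423 in WT and 3286 to 4413 in ltm (log2 difference 0.27 ± 0.097, limma adjusted p = 0.513). The genotypes overlapped through ltm 4 leaves A, at 3286. At 6 leaves both ltm libraries (4413 and 4076) lay above both WT libraries (3074 and 3419), an order that 22.5% of tested genes shared. The log2 difference there was 0.39 ± 0.14 (limma unadjusted p = 0.0223, adjusted p = 0.755). SP (SELF PRUNING), a florigen relative that holds back flowering and is likewise named after its values were seen, was at 21.3 and 39.3 in ltm 4 leaves, at 0.914 and 0 in WT 4 leaves, at 10.4 and 5.0 in ltm 6 leaves and at 7.97 and 0 in WT 6 leaves.

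Floral organ genes, among them the relatives of the Arabidopsis genes that LEAFY and UNUSUAL FLORAL ORGANS activate, mostly had few reads. Of the 9 on the list, 3 had at least 10 reads in all and 2 passed the filter. TM6, a B-class gene of petal and stamen identity, was at 507.4 to 893.6 in WT and 503.6 to 821.8 in ltm, with no separation by genotype. AGL6, a MADS-box gene of flower development, was at 10.1 to 15.7 in WT and 0 to 10.1 in ltm (log2 difference -2.12 ± 0.52, limma adjusted p = 0.322). The genotypes of AGL6 overlapped by a narrow margin, since ltm 4 leaves B was at the level of WT 4 leaves A. Neither passed in any comparison.

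In the meristem list 1 of the 7 genes passed over all genes, where 0.0417% of all tested genes did, and the list's median log2 difference was 0.17 against -0.0047 over all tested genes. TKN1, a KNOX homeobox gene that keeps meristem cells dividing, was at 1299 to 1583 in WT and 2424 to 3320 in ltm (0.96 ± 0.10 over both leaf numbers, limma adjusted p = 0.036). That call was lost when any of 7 of the 8 libraries was left out, with differences of 0.88 to 1.05 and adjusted p of 0.0163 to 0.269 in limma. GOB, the GOBLET transcription factor that marks organ boundaries, also had its genotypes fully apart, at 3050 to 3928 in WT and 4151 to 5086 in ltm, without passing (0.44 ± 0.090, limma adjusted p = 0.239). TKN1 and GOB, 2 of the 7, were thus higher in every ltm library than in every WT library, an order found in 3.55% of all tested genes. CLV3, LS (LATERAL SUPPRESSOR, needed for side shoots) and the KNOX gene TKN2 overlapped between the genotypes, with log2 differences of -0.56 ± 0.28, 0.24 ± 0.13 and 0.17 ± 0.13. WUS, a stem cell gene named because it is of the same homeobox family as S, was at 152.4 to 217.5 in WT and 166.6 to 245.7 in ltm, also overlapping.

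**Figure D3:**
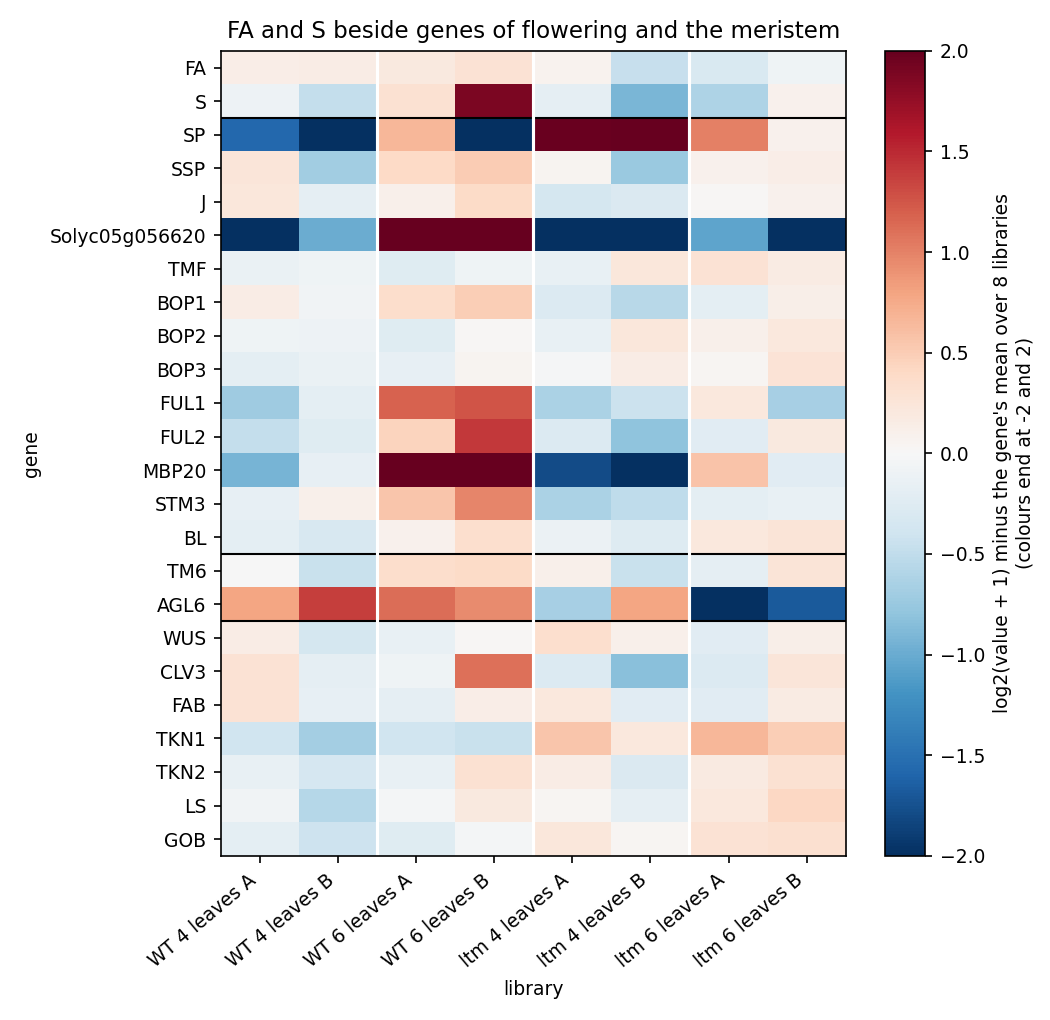
Log2(value + 1) of each tested gene minus its own mean over the 8 libraries (colour, from -2 in blue to 2 in red), with FA and S at the top, then the inflorescence, floral organ and meristem lists, set apart by black lines; columns are libraries. S, FUL1, FUL2, MBP20, STM3 and Solyc05g056620 are highest in the WT 6 leaves columns, while FA shows a weaker split between the 4 WT and the 4 ltm columns.

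The genes most like FA and S were sought among 16021 tested genes with a mean value of at least 50, by Pearson's r of log2 values over the 8 libraries, as a description. For FA, 33 genes had an r of at least 0.9, the highest being Solyc09g008680 at 0.977, and 0 of the listed genes reached that level. The nearest was BOP1, a BLADE-ON-PETIOLE gene, at 0.806, while TMF ran opposite to FA at -0.882. Without ltm 4 leaves B these became 0.643 for BOP1 and -0.885 for TMF. For S, 155 genes reached 0.9, led by Solyc01g100350 at 0.987, and FUL2 (0.949) and CLV3 (0.914) were among them. Without WT 6 leaves B these became 0.829 for FUL2 and 0.755 for CLV3. The 8 points are the same libraries for every gene, so many genes reach such values together.

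The genes next to the members on the chromosomes, 10 tested genes on each side in the order of the identifiers, were examined for the same genotype difference. Over all tested genes the ltm libraries were all above the WT libraries in 3.55% and all below in 2.41%, and the neighbours are read against these shares. Beside S, 0 of 20 had the genotypes fully apart, and their median log2 difference over both leaf numbers was -0.075. Beside AN, 1 of 20 did, with a median of 0.00098: Solyc02g081600, at -1.21, lay lower in all ltm libraries, whereas AN lay higher. Beside FA, 2 of 20 did, with a median of -0.0085. The gene listed directly before FA, Solyc03g118150, was lower in all ltm libraries as well, at -0.29. The other, Solyc03g118280, the last of the 10 after FA, was higher in all ltm libraries, at 0.24. The labels do not state that reads were counted by strand, and reads from overlapping neighbours could then not be told apart. These identifiers were named after their values were seen.

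**Figure D4:**
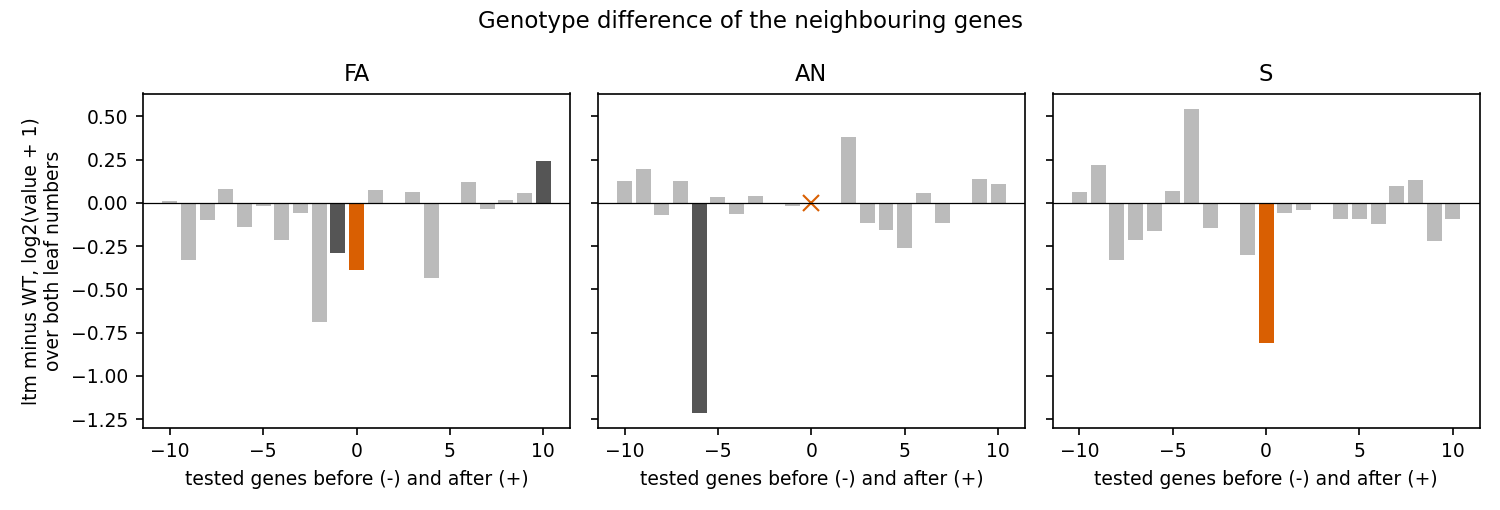
Log2 difference of ltm minus WT over both leaf numbers (vertical axis) for the 10 tested genes on each side of FA, AN and S by rank in identifier order (horizontal axis); the member is orange, dark bars have all ltm libraries on one side of all WT libraries, and the cross marks AN, which was not tested. Most neighbours lie near 0, with 2, 1 and 0 dark bars beside FA, AN and S.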

How the data were processed

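Per the submitters' processing notes, the upstream tools were DESeq2 1.6.3, HTSeq 0.6.1p1 and TopHat2 2.0.10. The genome build and the strand setting were not given in the sources used here. Values as deposited are signal: the authors' read counts per gene after division by 1 size factor for each library (0.883 to 1.09). Reads were recovered because 100% of the values were multiples of a single step per library, to within 1e-06. For the tests across genes, log2(value + 1) of all 8 libraries went into limma 3.58.1 (trend, under R 4.3.3) with a mean per group. This scale understates the change of low genes. Genes needed a value of 10 or more in 2 or more libraries, and p-values were adjusted over all genes tested (Benjamini-Hochberg, threshold 0.05). Alternatives on recovered reads used DESeq2 1.42.0 and edgeR 4.0.16. Other alternatives changed the pseudocount, the filter and the scaling, took the letter A or B as a block, or left out libraries. Quantile normalization and the refits for TKN1 were added after seeing the data. The fits were tested on simulated data.

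The members, lists and tests were chosen with earlier results of these data known. Besides the 3 members, genes were named from the lists when they passed over all genes or had the smallest unadjusted p (4 per list) in the WT stage or 6 leaves genotype comparison; WUS was named as a family member of S, and other exceptions are stated. The green-tissue list was compiled by identifier after the table was seen. Symbols of the lists rest on general knowledge of tomato identifiers; of the members, FA, AN (a synonym of DOT) and S appear in NCBI RefSeq (SLM_r2.1) on the chromosome that the identifier gives. No sequences of the members were used here.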

Additional observations from a re-analysis of the deposited data

How the results depend on the processing

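FA and S passed the adjustment over all genes in 0 of their 260 alternative fits, and the direction changed in 13, all in comparisons whose 95% interval held 0. FA over both leaf numbers stayed lower in ltm in every alternative, and its smallest adjusted p was 0.139. Leaving out each library in turn, FA in ltm against WT ranged from -0.60 to -0.071 at 4 leaves, -0.56 to -0.33 at 6 leaves and -0.52 to -0.26 over both. Its stage difference ranged from 0.061 to 0.15 in WT, -0.27 to 0.26 in ltm and -0.080 to 0.18 over both genotypes, and the interaction from -0.37 to 0.15. S ranged from 0.59 to 2.18 (WT stage), -0.092 to 0.64 (ltm stage), 0.43 to 1.23 (stage over both), -0.62 to 0.12 (genotype at 4 leaves), -2.15 to -0.57 (at 6 leaves), -1.20 to -0.41 (over both) and -1.90 to -0.32 (interaction). Without both 4 leaves B libraries the stage difference of FA over both genotypes was -0.079 and that of S in ltm -0.092. The ltm stage difference of FA was 0.0011 with TMM scaling and 0.015 with quantile normalization, which was chosen after seeing the data; the cause was not tested.

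The difference of mean AN values ranged from 4.06 to 11.1 for genotype at 4 leaves, -6.71 to 0.304 for the ltm stage and -7.21 to -0.194 for the interaction when libraries were left out. Without both 4 leaves B libraries these were 4.06, 0.304 and -0.194. With rearrangements kept within the leaf number, the permutation p of FA and of AN was 0.0556, the smallest that design allows.

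The A and B letters were checked for pairing: deviations of the A libraries correlated across genes at 0.129 to 0.522 between groups, but 2 letters are too few to establish pairs. With the letter as a block FA over both leaf numbers was -0.39 with an adjusted p of 0.277 in limma, and no call of FA or S changed. Genes called over the table for ltm against WT over both leaf numbers were 8 in limma, 20 with the block, 7 in edgeR, 145 in DESeq2 and 1 to 11 with a library left out. DESeq2 called 11 (limma 0) for the WT stage, 4 (0) for the ltm stage, 52 (0) for the stage over both, 19 (1) for genotype at 4 leaves and 36 (1) at 6 leaves. For genotype at 6 leaves limma called 2 to 4 in several alternatives, for genotype at 4 leaves 0 with only the groups compared, and for the WT stage 1 with a pseudocount of 5.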
